A study of Danio rerio with 4 samples.

Results

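Log2 ratios of 62 zebrafish genes of neuronal adhesion, synapses and ion channels were examined in NHA9 embryos against lGl embryos. The genes were chosen by symbol, with earlier results of these data known. Included were those whose platform symbol or current RefSeq symbol begins with pcdh, elavl, nrxn, nlgn, syt, stx, snap25, gabr, gria, grin, kcn or scn, and gfap. They are 62 of 9667 named genes and carry 96 probes. Of the 62, 43 have 1 probe, 19 have 2 or more, and 9 met the rule by their current symbol alone. By class, 22 are adhesion genes (18 protocadherins and 4 neurexins), 5 are ELAV-like RNA-binding proteins and 20 have vesicle release symbols. The others are 9 potassium channel symbols, 4 glutamate receptor symbols, gfap and scnm1. The number of genes measured with neuroligin symbols was 0, as was that with GABA-A receptor symbols.

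NHA9 embryos came from Tg(spi1::lox-eGFP-lox::NHA9) fish crossed to Tg(hsp70::Cre) fish. The oncogene NUP98-HOXA9, abbreviated NHA9, arises in human myeloid leukaemias by fusion of a nucleoporin gene with a homeobox gene, and the spi1 promoter that drives it here is active in myeloid cells. lGl embryos had the same floxed parent line and an AB wild-type parent, so the eGFP cassette stayed in front of the fusion gene. Both kinds received their heat shock (37 °C, 1 hour) at 24 hours post-fertilization and were then kept at 28 °C. RNA was taken 4 hours after that shock, at 28 hours post-fertilization. Effects of the fusion gene, of the Cre transgene and of the second parent cannot be told apart, since all differ between the crosses. Removal of the cassette was not analysed here. The RNA is of whole embryos, so fewer cells of a type and less RNA per cell cannot be told apart in any ratio given here.

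There were 2 RNA extracts of each kind, and replicate 1 and replicate 2 each pair an NHA9 extract with an lGl extract. Each pair was hybridised with NHA9 in Cy5 (the forward array) and again with the dyes exchanged (the dye swap), on 4 arrays in all. The labels call the extracts biological replicates and do not say how many embryos or clutches each held. A ratio is NHA9 over lGl on a log2 scale, so a value below 0 means less signal in NHA9 embryos. That direction is likely, judged by the titles of the arrays and their dyes, but no source used here states it. If it is the other way round, every sign given here turns. All 4 columns are read as ratios already turned to 1 direction, since an array and its dye swap correlated above 0, with r = 0.747 over all probes in replicate 1 and r = 0.465 in replicate 2. Forward arrays of the different replicates correlated at 0.449, and their dye swaps at 0.387. A forward array and the dye swap of the other replicate correlated at 0.112 and 0.109 (Spearman's rho −0.012 and 0.009). Spot intensities were not used here, so it is not known which probes lay above background.

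Protocadherins and neurexins are adhesion proteins of the neuronal surface. Neurexins sit on the presynaptic side and bind partners such as neuroligins, and clustered protocadherins give mammalian neurons individual surface identities. Vesicle release rests on SNARE proteins, of which syntaxins and SNAP-25 sit on the target membrane, with synaptotagmins as calcium sensors and Munc18-type syntaxin-binding proteins as partners. ELAV-like proteins bind messenger RNA, and the genes elavl3 and elavl4 are standard markers of differentiating neurons in zebrafish embryos. Gfap is the intermediate filament of radial glia in the fish nervous system. At the age sampled here the first neurons have extended axons while most of the brain is still made of dividing progenitors.

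None of the 62 genes passed the test. Limma's moderated test of the 2 replicates, with Benjamini-Hochberg adjustment over all 13263 genes and unnamed probes, called 0 of 62 at adjusted p under 0.05, against 2.83% of everything tested. At an unadjusted p under 0.05 the count was 6 of 62 (9.68%), namely elavl4, elavl2 and pcdh18b with ratios below 0 and stxbp2, stx11b.1 and stx5al with ratios above 0. The background at that level was 10.4%, so the share among these genes lies near it. The smallest mean ratio that the test called had a size of 0.96, and the 95% interval of every mean was ±0.59. That width is the same for every gene because the spread was pooled over all of them. A gene's own spread between replicates had no weight in its p-value or interval. Mean ratios under 0.96 in size were not detectable as differences with 2 pairs of extracts.

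All 4 arrays gave the same sign for 22 of the 62 genes (35.5%), against 32.5% of all genes and probes. Of these, 11 were negative on every array (17.7%, against 13.2%) and 11 were positive (17.7%, against 19.4%). The negative ones are elavl2, elavl4, gfap, grin1a, grinaa, kcnj1a.5, nrxn2b, pcdh10a, pcdh2g28, pcdh2g29 and syt11a. The positive ones are elavl1a, kcnk5b, kcnk6, stx5a, stx5al, stx11b.1, stxbp2, stxbp3, syt4, sytl1 and sytl4. Negative genes come from every class except scnm1's, while 8 of the 11 positive genes have vesicle release symbols.

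**Figure D1:**
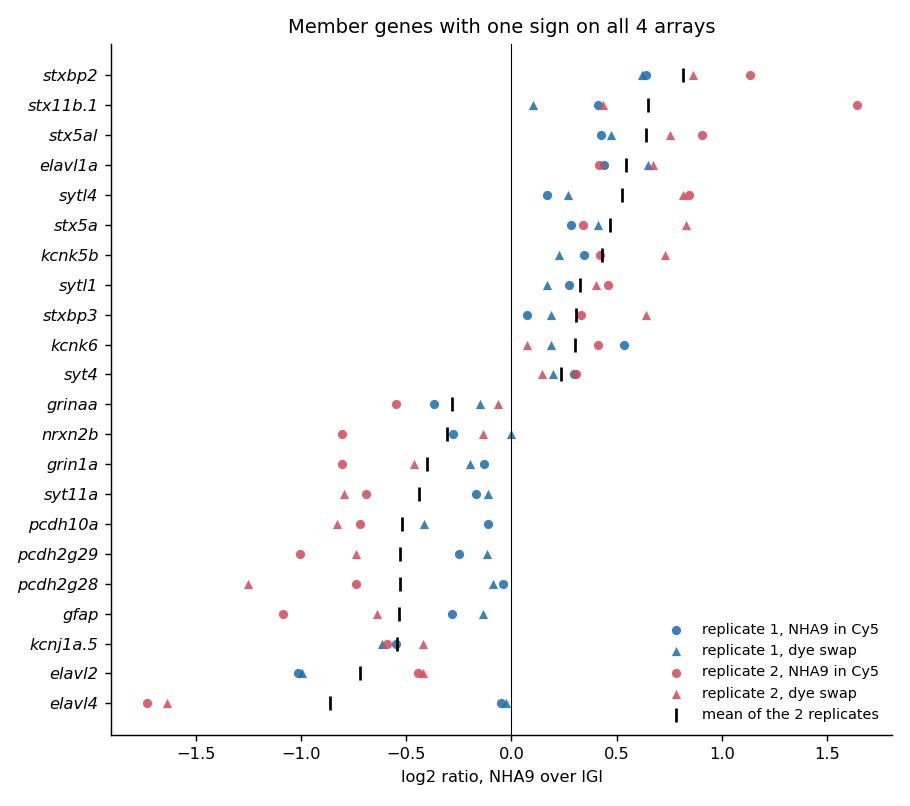
Log2 ratio (NHA9 over lGl, x axis) of the 22 genes with the same sign on all 4 arrays, ordered by mean. Circles are arrays with NHA9 in Cy5, triangles their dye swaps, colours the 2 pairs of extracts and black bars the mean of the 2 replicates; elavl4, at −0.86, is lowest and its 2 replicates stand far apart, while stxbp2, at 0.82, is highest.

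The median ratio of the 62 genes was −0.06 (replicate 1 0.05, replicate 2 −0.09). Over the 9667 named genes it was 0.02 (replicate 1 0.01, replicate 2 0.06). In replicate 2, 38 of the 62 genes were negative (61.3%), against 45.9% of named genes. In replicate 1, 29 of the 62 were negative (46.8%), against 48.5%. The ratio was lower in replicate 2 than in replicate 1 for 39 of the 62 genes (62.9%, against 46.8% of named genes). The replicates gave the same sign for 39 of the 62 genes (62.9%, against 54.7%). Across the 62 genes the replicates correlated at r = 0.372 (Spearman's rho 0.381), against 0.304 (0.192) across all named genes. By class, r was −0.03 for adhesion genes, 0.43 for potassium channel symbols and 0.51 for vesicle release symbols. These correlations are descriptions across genes, which share arrays and extracts and are not independent replicates.

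**Figure D2:**
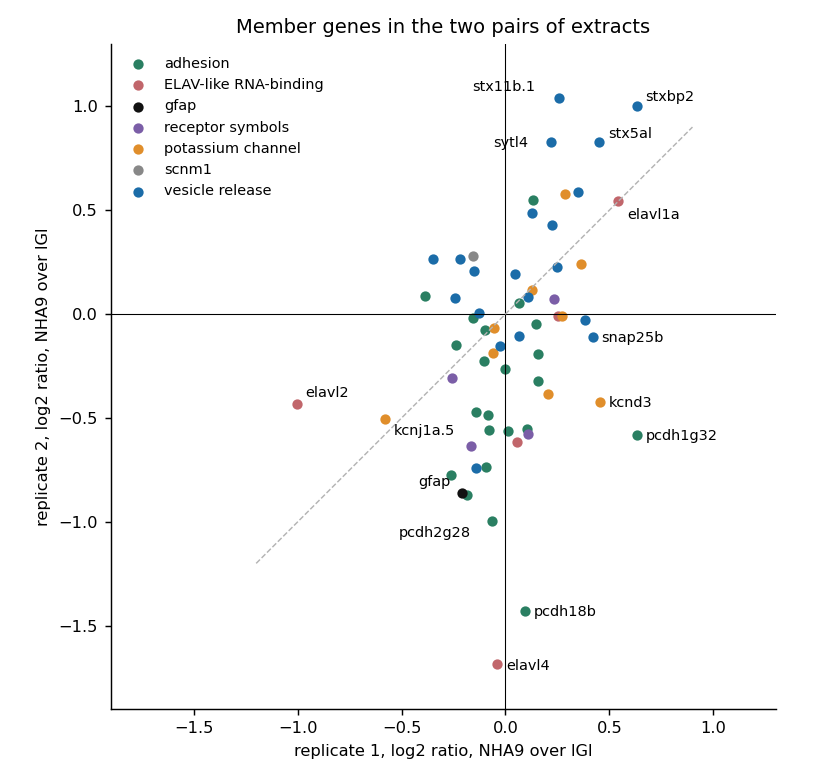
Log2 ratio (NHA9 over lGl) of each of the 62 genes in replicate 1 (x axis) and replicate 2 (y axis), each the mean of an array and its dye swap, coloured by class; the dashed line marks equal values. elavl4 and pcdh18b lie near 0 in replicate 1 and at −1.69 and −1.43 in replicate 2, and elavl2 is the only gene below −0.75 in replicate 1.

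The ELAV-like genes elavl4 and elavl2 held the lowest mean ratios of the whole set, while others of their family lay nearer 0 or above it. elavl4, which encodes the neuronal protein HuD, had ratios of −1.73 on the forward array and −1.64 on the dye swap of replicate 2, and of −0.05 and −0.03 in replicate 1. The low values were thus all in replicate 2, and its 3 probes agreed there, between −1.76 and −1.60, while in replicate 1 they ran from −0.17 to 0.18. Its mean was −0.86 ± 1.17 (SD, n = 2), with limma adjusted p = 0.107. The 95% interval, −1.45 to −0.27, rests on the spread pooled over all genes and not on this gene's own SD.

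elavl2, a neuronal paralogue, was low in both replicates but more so in replicate 1. Its ratios were −1.02 and −0.996 on the forward array and dye swap of replicate 1, and −0.44 and −0.42 on those of replicate 2. Both probes were negative in both replicates, and the mean was −0.72 ± 0.41 (SD, n = 2; limma adjusted p = 0.267). elavl3, which encodes HuC, had ratios of −0.13 and 0.24 in replicate 1 and of −0.95 and −0.28 in replicate 2, for a mean of −0.28 ± 0.47. Its arrays of replicate 1 lie on both sides of 0.

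The paralogue pair elavl1a and elavl1b, whose mammalian counterpart HuR is made in most cell types, had means above 0. elavl1a had ratios of 0.44 and 0.65 in replicate 1 and of 0.42 and 0.67 in replicate 2, so the replicates agreed (mean 0.54, limma adjusted p = 0.545). elavl1b averaged 0.12, with 0.26 in replicate 1 and −0.01 in replicate 2. Its 5 probes had means from −0.25 to 0.39 and did not agree in sign. The 3 neuronal ELAV genes had a median of −0.61 in replicate 2 and of −0.04 in replicate 1.

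gfap was below 0 on every array. Its ratios were −0.28 and −0.14 in replicate 1 and −1.08 and −0.64 in replicate 2, again lower in replicate 2, with a mean of −0.54 ± 0.46 (SD, n = 2; limma adjusted p = 0.560). All 3 of its probes were negative in both replicates, from −0.37 to −0.07 in replicate 1 and from −1.34 to −0.50 in replicate 2.

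**Figure D3:**
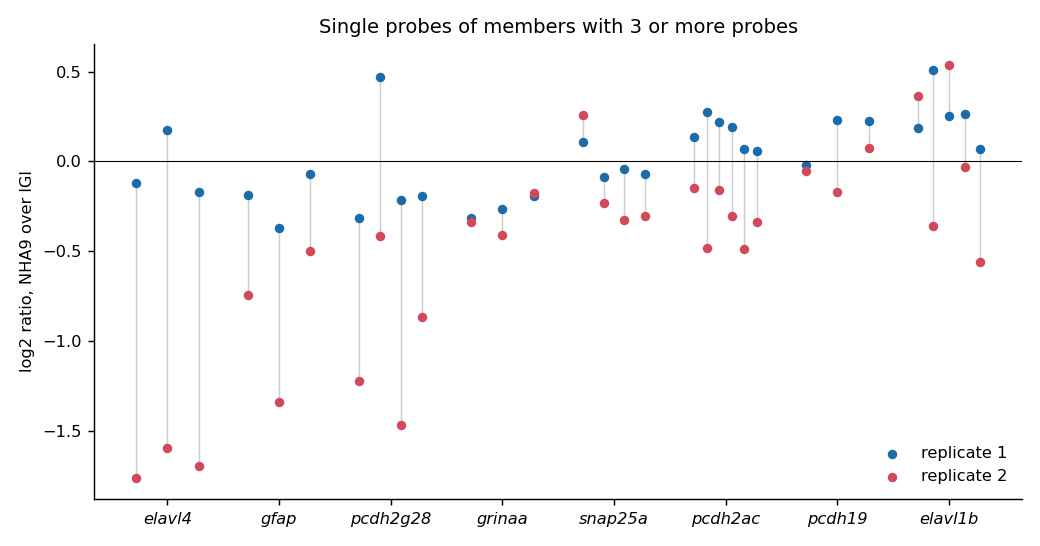
Log2 ratio (NHA9 over lGl, y axis) of single probes of the 8 genes with 3 or more probes; each grey line joins the value of 1 probe in replicate 1 and in replicate 2. The 3 probes of elavl4 and the 3 of gfap all lie lower in replicate 2, while the 5 of elavl1b run in both directions.

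Neurexins were all below 0 in replicate 2. nrxn2a had −0.74, nrxn1a −0.56, nrxn3a −0.55 and nrxn2b −0.47 there, and all 8 neurexin values from the arrays of that replicate were negative. In replicate 1 their median was −0.04, with nrxn2b at −0.14 and nrxn3a at 0.10. Only nrxn2b had the same sign on all 4 arrays, and its dye swap of replicate 1 was at −0.003. The means lay between −0.42 for nrxn2a and −0.23 for nrxn3a, all within ±0.59 of 0.

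The protocadherins had a median of −0.14, with −0.07 in replicate 1 and −0.25 in replicate 2, where 15 of 18 were negative. Outside the clusters, pcdh18b, a protocadherin of the delta type, had the largest gap between replicates among adhesion genes. Its 1 probe gave −1.51 and −1.35 in replicate 2, but −0.02 and 0.21 in replicate 1 (mean −0.67 ± 1.08, SD, n = 2; limma adjusted p = 0.350). Its paralogue pcdh18a was at 0.16 in replicate 1 and −0.19 in replicate 2.

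pcdh10a, which encodes another delta protocadherin, was negative on all arrays, with −0.11 and −0.42 in replicate 1 and −0.72 and −0.83 in replicate 2 (mean −0.52 ± 0.36). Its paralogue pcdh10b averaged −0.09, and its 2 probes had opposite signs in replicate 2 (0.02 and −0.06). pcdh17 averaged −0.19. pcdh19, whose human counterpart is mutated in an inherited epilepsy, averaged 0.05, and its 3 probes had means between −0.04 and 0.15.

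The pcdh1 and pcdh2 clusters differed in where their values lay. The 6 pcdh2 genes were all negative in replicate 2 on both arrays, with a median of −0.52 there and of −0.08 in replicate 1. The 6 pcdh1 genes had medians of −0.01 in replicate 2 and 0.03 in replicate 1. Variable exons of such a cluster share downstream exons, and overlapping gene records were found in both clusters, so the assignment of a probe to 1 of these genes is uncertain and the genes are not independent of each other. The difference between the clusters was not tested.

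Among pcdh2 genes, pcdh2g28 had ratios of −0.04 and −0.09 in replicate 1 and of −0.74 and −1.25 in replicate 2 (mean −0.53 ± 0.66). Its 4 probes had means from −0.84 to 0.03, so 1 of them did not follow the rest. pcdh2g29, which shares a position with pcdh2g28 in RefSeq, had −0.25 and −0.12 in replicate 1 and −1.003 and −0.739 in replicate 2 (mean −0.53 ± 0.49). pcdh2ac, with 6 probes, averaged 0.16 in replicate 1 and −0.32 in replicate 2, with all 6 probes positive in replicate 1 and negative in replicate 2. The means of pcdh2g6, pcdh2g12 and pcdh2g8 were −0.32, −0.28 and −0.16.

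In the pcdh1 cluster, pcdh1g32 gave 0.52 and 0.75 in replicate 1 but −0.72 and −0.44 in replicate 2, so its mean of 0.02 hides opposite values. pcdh1a4 had the highest mean of all protocadherins, at 0.34, and was negative only on the forward array of replicate 1. The remaining means were −0.15 for pcdh1gb2, −0.14 for pcdh1g9, −0.09 for pcdh1g18 and 0.06 for pcdh1g31.

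**Figure D4:**
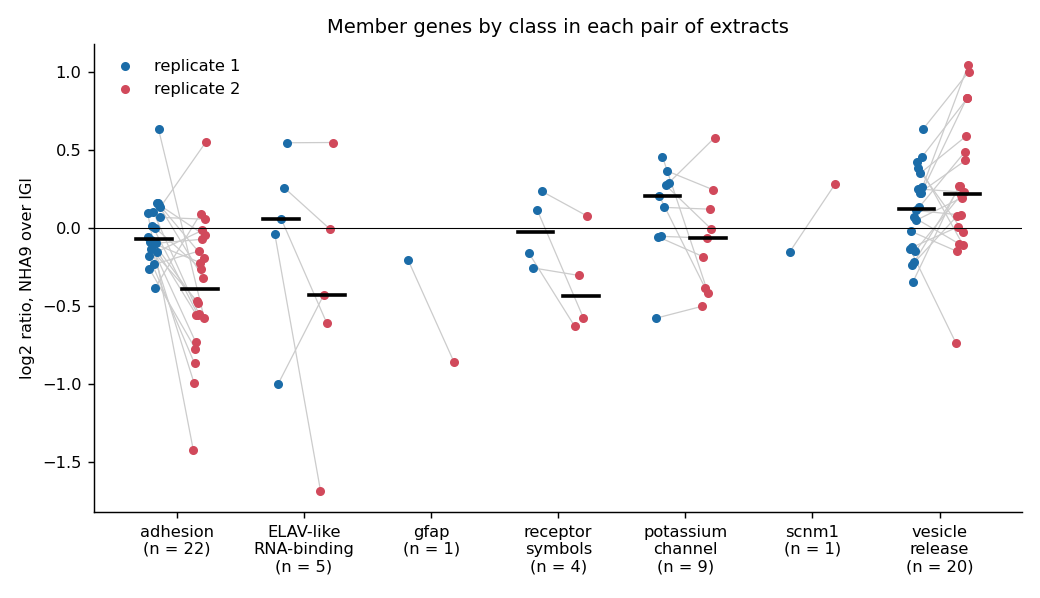
Log2 ratio (NHA9 over lGl, y axis) of the 62 genes by class, with replicate 1 in blue and replicate 2 in red, a grey line joining the values of 1 gene and black bars at class medians. The adhesion median lies at −0.07 in replicate 1 and at −0.40 in replicate 2, while the vesicle release median is above 0 in both, at 0.12 and 0.22.

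Glutamate receptor symbols covered subunits of synaptic channels and membrane proteins that are not subunits. grin1a, the obligatory subunit of NMDA receptors, was negative on every array, with −0.13 and −0.20 in replicate 1 and −0.81 and −0.46 in replicate 2 (mean −0.40 ± 0.33, limma adjusted p = 0.762). gria1a, an AMPA receptor subunit, had 0.07 and 0.15 in replicate 1 but −0.80 and −0.35 in replicate 2, for a mean of −0.23. Both subunits were thus low in replicate 2. grinaa and grinab encode membrane proteins named for an association with NMDA receptors and related to cell death regulators. grinaa averaged −0.28, negative in all 3 probes and both replicates, while grinab averaged 0.15.

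Potassium channel genes scattered around 0, with a median of 0.02 (0.20 in replicate 1 and −0.07 in replicate 2). kcnj1a.5, a gene of the inward rectifier family, was the one with close values below 0 on all arrays, at −0.55 and −0.61 in replicate 1 and at −0.59 and −0.42 in replicate 2 (mean −0.54 ± 0.05, SD, n = 2; limma adjusted p = 0.547). Both of its probes were negative in both replicates. Its neighbours kcnj1a.4 and kcnj1a.2, similar copies whose probes may share signal with it, averaged −0.06 and −0.09. The mean of kcnj1a.2 hides opposite signs, 0.20 in replicate 1 and −0.39 in replicate 2.

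kcnk5b and kcnk6 encode potassium channels of the two-pore domain family, which carries background potassium currents. kcnk5b was above 0 on every array, at 0.35 and 0.23 in replicate 1 and 0.42 and 0.73 in replicate 2 (mean 0.43 ± 0.20). kcnk6 averaged 0.30, but its 2 probes had means of 0.09 and 0.51 and opposite signs in replicate 2 (−0.27 and 0.76). On the dye swap of replicate 2 they were at −1.06 and 1.21, so the positive value of kcnk6 on that array rests on their average. The third gene of that family, kcnk1a, averaged −0.12. kcnd3, which encodes a voltage-gated channel of the A type, had 0.45 and 0.46 in replicate 1 and −0.67 and −0.18 in replicate 2, opposite signs that average to 0.02. kcnip1b and kcnip3b, which encode interacting proteins of such channels rather than channels, averaged 0.13 and 0.12.

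The only gene found under the sodium channel prefix, scnm1, encodes a splicing factor named for a sodium channel modifier locus in mouse. Its mean was 0.06, with −0.16 in replicate 1 and 0.28 in replicate 2. No sodium channel subunit was among the genes the rule found.

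Vesicle release symbols had a class median of 0.14 (0.12 in replicate 1 and 0.22 in replicate 2), and 6 of the 20 means were below 0. With the columns read by dye the class median was −0.03. Within the class, syntaxin-binding genes had a median of 0.31 and synaptotagmin-like genes of 0.43. Medians of the syntaxins (0.06), SNAP-25 genes (0.03) and synaptotagmins proper (−0.02) lay near 0, but differed by replicate. They were −0.01, 0.20 and 0.07 in replicate 1, and 0.24, −0.13 and −0.11 in replicate 2. snap25a, the SNAP-25 gene with 4 probes, averaged −0.09, and its array values ran from −0.24 to 0.02. snap25b had 0.67 and 0.16 in replicate 1 and 0.36 and −0.57 in replicate 2, so its forward arrays were both higher than their dye swaps. syt1a, the calcium sensor of fast release, averaged −0.02. syt11a, a synaptotagmin whose mammalian form does not bind calcium, was negative on all arrays, with −0.17 and −0.11 in replicate 1 and −0.69 and −0.79 in replicate 2 (mean −0.44 ± 0.43, limma adjusted p = 0.712), and both of its probes were negative in both replicates. syt4 was positive on all arrays, between 0.15 and 0.31.

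The highest mean ratios of the class belonged to stxbp2, stx11b.1, stx5al and sytl4, none of which passed the test. stxbp2, a Munc18-type protein whose human form is needed for granule release by cytotoxic lymphocytes, had 0.64 and 0.62 in replicate 1 and 1.14 and 0.86 in replicate 2. All arrays were thus high, both probes were positive, and the mean was 0.82 ± 0.26 (SD, n = 2; 95% interval 0.23 to 1.40; limma adjusted p = 0.147). stx11b.1, related to a human syntaxin that serves the same granule release, had 0.41 and 0.10 in replicate 1 and 1.64 and 0.44 in replicate 2. Its forward arrays were higher than the dye swaps in both replicates, by 1.21 in replicate 2 (mean 0.65 ± 0.55, limma adjusted p = 0.383).

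stx5al and stx5a belong to the syntaxin 5 family, which serves transport between the endoplasmic reticulum and the Golgi. stx5al had 0.43 and 0.47 in replicate 1 and 0.91 and 0.75 in replicate 2, and both probes were positive (mean 0.64 ± 0.27, limma adjusted p = 0.400). stx5a averaged 0.47. The synaptotagmin-like proteins, which bind Rab27 on secretory granules in mammals, were also positive throughout. sytl4 had 0.17 and 0.27 in replicate 1 and 0.85 and 0.82 in replicate 2 (mean 0.52 ± 0.43), and sytl1 averaged 0.33. stxbp3, a Munc18-type protein found in many cell types, averaged 0.31.

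The remaining 8 genes of the class had means between −0.08 and 0.18, close to 0 beside the ±0.59 interval. They were the endosomal or Golgi syntaxins stx6 (0.18), stx8 (0.03) and stx12 (0.10), the endoplasmic reticulum syntaxin stx18 (−0.08), the plasma membrane syntaxins stx2a (0.02), stx3a (−0.06) and stx4 (−0.04), and stxbp6 (0.12). The 2 probes of stx4 disagreed, with means of −0.51 and 0.43.

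Gene pairs left from the genome duplication of bony fish had no direction common to all pairs. Within a pair, both means had the same sign for pcdh18, pcdh10, elavl1 and nrxn2, and opposite signs for grina and snap25. Besides pcdh18, pcdh10 and elavl1, described above, nrxn2a and nrxn2b averaged −0.42 and −0.31, grinaa and grinab −0.28 and 0.15, and snap25a and snap25b −0.09 and 0.16. Differences within these pairs were not tested.

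Other neural genes, in 6 lists of channels, receptors, synaptic vesicle genes, scaffolds, adhesion and guidance genes and neuronal cytoskeleton genes, had a similar median. Over these 146 genes the median was −0.10 (replicate 1 0.06, replicate 2 −0.24). The test called 2 of the 146, against 2.83% of everything tested. By list, 1 of 34 synaptic vesicle genes fell, and 1 of 40 adhesion and guidance genes rose. The gene that fell was sncga, of the synuclein family, with −1.66 and −1.28 in replicate 1 and −1.59 and −0.69 in replicate 2 (mean −1.30, limma adjusted p = 0.00113). The gene that rose was sema4e, a semaphorin that guides axons, with 0.90 and 1.00 in replicate 1 and 1.47 and 1.63 in replicate 2 (mean 1.25, limma adjusted p = 0.00228).

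None of 7 ion channel genes, 9 receptor genes, 9 scaffold genes and 48 neuronal cytoskeleton and transmitter synthesis genes passed limma's test, with 0, 3, 0 and 1 of them at an unadjusted p under 0.05 (background 10.4%). Their medians in replicate 2 were −0.29, −0.14, 0.13 and −0.27, against 0.04, 0.01, 0.15 and 0.07 in replicate 1. Adhesion and guidance genes had −0.38 in replicate 2 and 0.09 in replicate 1, and synaptic vesicle genes 0.06 and 0.02. The scaffold and synaptic vesicle lists thus did not share the low values of replicate 2.

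Neural progenitor and glial genes also had lower medians in replicate 2. These lists were not kept free of shared genes and have the same lowest mean (−0.815), so they are not separate evidence. Of 36 progenitor genes, 32 were negative in replicate 2 and 6 in replicate 1, against 45.9% and 48.5% of named genes. Their medians were −0.37 and 0.09. Limma's test called 0 of them, against 2.83% of everything tested (3 at an unadjusted p under 0.05, background 10.4%). The 20 glial genes other than gfap had medians of −0.38 in replicate 2 and 0.04 in replicate 1. Again 0 passed the test (2 at an unadjusted p under 0.05, background 10.4%). Among 10 measured neuron markers, values in replicate 2 ran from −1.69 to 0.24, with a median of −0.14, and in replicate 1 from −0.13 to 0.51, with a median of 0.04. These markers include elavl3, elavl4, snap25a, snap25b and syt1a, which are genes of the 62, and the value of −1.69 is that of elavl4. The 4 measured radial glia markers, which include gfap, had a median of −0.75 in replicate 2 and of −0.08 in replicate 1. Their values did not agree in sign, running from −1.10 to 0.58 in replicate 2 and from −0.21 to 0.38 in replicate 1. Neither marker set is thus separate from the 62 genes. The part of neural tissue content in the ratios of the 62 genes was not tested.

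**Figure D5:**
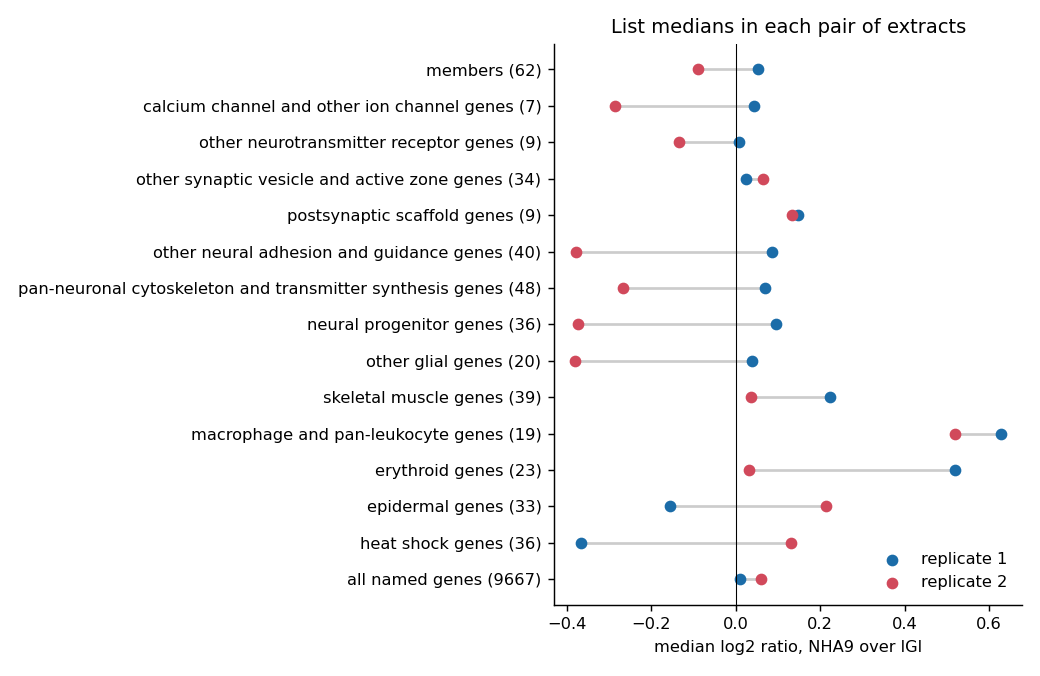
Median log2 ratio (NHA9 over lGl, x axis) of each gene list in replicate 1 (blue) and replicate 2 (red), with the number of genes in brackets. The 62 genes, the progenitor list and the glial list lie left of 0 in replicate 2 and right of it in replicate 1, while the macrophage list is right of 0 in both, at 0.63 and 0.52.

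In the lists of other tissues, each gene that passed the test rose. Over everything tested, 271 of the 376 calls were above 0 and 105 below. The 19 macrophage and leukocyte genes had a median of 0.54, with 15 positive on all 4 arrays (19.4% of everything tested was). The 2 that rose, in a test that called 2.83% of everything tested, were mpeg1.1, a perforin-like macrophage marker (1.08, limma adjusted p = 0.0159), and slc7a7, which encodes an amino acid transporter (1.16, adjusted p = 0.00645). The 2 measured macrophage markers had medians of 0.86 in replicate 1 and 0.79 in replicate 2. As 1 of the 2 is mpeg1.1, they are not separate from the genes just named. The other marker was at 0.52 and 0.61. These genes lay high beside stxbp2 and stx11b.1, and the part of leukocytes in those ratios was not tested. The 23 erythroid genes had medians of 0.52 in replicate 1 and 0.03 in replicate 2, with 0 past limma's test (7 at an unadjusted p under 0.05, where the background was 10.4%). The 4 erythroid markers had medians of 0.60 in replicate 1 and 0.25 in replicate 2, and the 4 muscle markers 0.33 and −0.07. The erythroid markers did not agree in sign, running from −0.83 to 1.00 in replicate 1 and from −0.61 to 0.36 in replicate 2. The muscle markers ran from 0.08 to 0.40 and from −0.34 to 0.35. Of 39 muscle genes (median 0.13), 1 passed, against 2.83% of everything tested. It was actn2b, which encodes an actinin of the Z disc and rose (1.12, limma adjusted p = 0.0102). The 33 epidermal genes had a median of 0.00, with −0.15 in replicate 1 and 0.21 in replicate 2. The 4 epidermis markers instead had medians of −0.06 in replicate 1 and −0.60 in replicate 2, where they ran from −0.71 to −0.36. Of the 33 genes of the list, 13 were negative in replicate 2. The markers and the list thus differed there, and the cause was not tested. Of the epidermal list, cdh1, the epithelial cadherin gene (1.03, limma adjusted p = 0.0259), and aep1 (1.70, 2.75e-06) rose. Of 36 heat shock genes (median −0.12, with −0.37 in replicate 1 and 0.13 in replicate 2), the small heat shock protein gene hspb12 rose (1.89, limma adjusted p = 7.85e-08) and ahsa1a, a cochaperone gene of Hsp90, fell (−1.67, 4.31e-06).

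The number of the 62 genes that passed differed with the reading of the columns, the arrays used and the spread taken as error. With the columns read by dye, where the dye swaps are turned in sign, 4 of the 62 passed (6.45%, against 15.0% of everything tested): snap25b (0.36) and stx11b.1 (0.38) above 0, and stx12 (−0.29) and stx18 (−0.28) below it. From the forward arrays alone 1 passed (1.61%, against 4.65%), stx11b.1 at 1.03. When the spread between an array and its own dye swap was taken as the error, which tests these pairs of extracts and not the kinds of embryo, 31 passed with a dye term (50.0%, against 50.8%) and 14 without (22.6%, against 17.9%). In each case but the last the share was near or below the background.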

How the data were processed

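Ratios came from 4 two-channel arrays of 20406 probes. The authors deposited 1 log ratio per probe and array, taken here as log2 because values run from −7.98 to 6.75; a natural log is possible. The sources used here name no base, centring, background correction or normalization. Per the labels' protocols, Trizol and RNeasy kits gave the RNA, Alexa Fluor dyes were built into its cDNA, and scarce samples, not named, were amplified.

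Probes were named through the platform annotation and RefSeq (assembly GRCz12tu): 16810 have 1 gene and 3596 stay unnamed and were tested singly. Probes of a gene were averaged, and an array and its dye swap were averaged to 1 replicate, since they share extracts, per the labels. The mean of 2 replicates was tested against 0 with limma 3.58.1 in R 4.3.3, over 13263 items with a Benjamini-Hochberg threshold of 0.05. The spread was pooled over all genes (SD 0.43), and the test was also run on simulated data with that spread. With 2 pairs of extracts, p-values rest on the spread between those pairs alone, pooled over genes, and not on a gene's own spread. No intensities were used, so no filter on dim probes was possible.

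The genes and lists were chosen with earlier results of these data known, and so was the reading of the columns. In each class, genes described in full are the 2 highest and 2 lowest with the same sign on all arrays, the one whose replicates differ most, those with 3 or more probes, and gfap, elavl3, elavl4, snap25a and snap25b. Other genes were added to account for every gene, or, as stx5al, nrxn2a, sytl4 and pcdh1g32, picked after their values were seen. In the lists, genes past the threshold are named.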

Additional observations from a re-analysis of the deposited data

How the results depend on the processing

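Under array scaling, quantile normalization, subtraction of column medians, dye swaps alone, the median of a gene's probes and single probes, 0 of the 62 genes passed the threshold, as in the reported fit. With the replicate number as a random replicate block, also 0 passed, with and without a dye term; the pairing comes from shared extracts, and the block changed no call among these genes. Counts moved to 4 with the columns read by dye, 1 with forward arrays alone, and 31 and 14 with the spread between an array and its dye swap as error, with and without a dye term, an alternative chosen after seeing the data. Over all items, the 376 calls became 247 and 114 under the replicate block with and without a dye term, 170 with scaled arrays, 1984 by dye, 617 with forward arrays, and 6734 and 2376 with the array spread as error. The median of the 62 genes ran from −0.090 to 0.053 when 1 replicate was left out, a value with no test, and the vesicle release median from 0.12 to 0.22. That class median was −0.031 by dye and 0.21 with forward arrays. The median of the 62 genes was −0.11 with forward arrays alone and 0.01 with dye swaps alone. The ratio of stx12 reversed to −0.29 by dye, against 0.10. By dye 36 of 62 ratios kept their sign, under scaling 58 and under quantile normalization 57. The causes were not tested.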

Other observations

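Along the chromosomes, several of the 62 genes lie close together in RefSeq's order. pcdh10a and pcdh18a have 1 gene between them, and their mean ratios were −0.52 and −0.02, while pcdh18b and pcdh10b, the paralogues of that neighbourhood, have 10 genes between them and averaged −0.67 and −0.09. kcnj1a.5 and kcnj1a.4 are adjacent, with 0 genes between them, at −0.54 and −0.06.

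The gap between an array and its dye swap was widest in replicate 2 for stx11b.1 (1.21), snap25b (0.93) and nrxn3a (0.77), genes chosen here after their values were seen. For elavl2 it was 0.02 in both replicates, below the gap of 0.57 between that gene's replicates. For elavl1a, the replicates agreed within 0.01 while the arrays within them differed by 0.21 and 0.26.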
